A study of Mus musculus with 88 samples.

Results

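Whole-blood RNA of pristane-treated SNF1 mice was compared between week 12 and week 2 after the injection, with 8 arrays of week 12 and 8 of week 2 out of 88 arrays in all. The members were chosen by their titles, which give the treatment, the week and a replicate number. The tested groups were pristane-treated mice of week 12 and pristane-treated mice of week 2. Untreated mice of week 12 and of week 2, with 8 arrays each, show what the same interval brought without pristane. All mice were SNF1, the F1 cross of the SWR and NZB strains, which develops lupus nephritis without any treatment. By the study's methods the mice were female, pristane was injected once into the peritoneum of young adults, and the untreated mice were matched in age. Thus a mouse of week 12 was also older than a mouse of week 2, in treated and untreated groups alike. The study describes 2 independent longitudinal experiments. The labels do not say which experiment an array came from, which arrays shared a plate or whether a mouse was bled at more than 1 week. The p-values therefore measure the spread between these samples. Week, age and any batch that followed the week cannot be told apart within treated blood.

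Pristane is a hydrocarbon oil that persists in the peritoneum and recruits inflammatory monocytes, which produce type I interferon. Interferon binds its receptor on blood cells and, through its signalling factors, switches on antiviral genes such as Ifit1 and Oas3. T cells and natural killer (NK) cells that answer type 1 inflammation carry the transcription factor T-bet, encoded by Tbx21, and the chemokine receptor CXCR3. Patrolling monocytes, the subset that crawls along the vessel wall, are marked by CX3CR1. Immature granulocytes carry transcripts for granule proteins such as cathelicidin, whereas mature neutrophils have lost most of them.

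Each array gave log2 signals for 45037 probe sets, which covered 17097 genes at 1 probe set per gene. A gene passed the test at an adjusted p under 0.05 and was called when the change also exceeded 2-fold (limma, Benjamini-Hochberg adjustment over all probe sets). Markers of red cells, neutrophils, B cells and platelets were bright on all 16 arrays, whereas Epx, the eosinophil peroxidase, reached at most 4.29. Hba-a1, the haemoglobin alpha chain, had a signal of at least 13.05 on every week 12 array and at least 13.35 on every week 2 array. The skin and muscle list, genes that blood should lack, scored between 3.51 and 3.93 on week 12 arrays and between 3.56 and 4.12 on week 2 arrays. Interquartile ranges of the arrays spanned 3.02 to 3.46 at week 12 and 2.77 to 3.46 at week 2. Each array's mean correlation with the others of its group was 0.928 to 0.946 at week 12 and 0.917 to 0.957 at week 2. Precision rests on 8 arrays a group, and in bulk blood fewer cells of a type cannot be told from less RNA per cell.

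At week 12, 70 genes were called higher in treated blood than at week 2 (0.409% of genes tested), and 15 were called lower (0.0877%). Without the fold threshold 165 genes passed the test upward (0.965%) and 46 downward (0.269%). For 41 genes (0.24%) all 8 week 12 arrays lay above all 8 week 2 arrays, and for 10 genes (0.0585%) all lay below. Of the called genes, 25 of the 70 higher and 2 of the 15 lower had such groups without overlap. Other probe sets existed for 32 of the 70 higher genes. For 5 of these 32 another probe set passed in the same direction, and for none in the opposite one. Among the 15 lower genes 9 had other probe sets, and for 2 of them another passed in the same direction. Most calls thus rest on 1 probe set. The largest rises by fold among named genes were in Wwtr1, Lpl, Smpdl3b, Adamdec1 and Mcpt8, and Cxcr3 and Tbx21 had the smallest p-values among members of the marker lists. Of the 70 higher genes, 18 averaged under 3.89 at week 2, the median of all deposited values, and 1 of the 15 lower genes did so at week 12. The files hold no detection calls, so a fold taken against such a low signal is uncertain in size. The falls were fewer and included Cd8a, the alpha chain of the CD8 co-receptor, and the chemokine receptor gene Ccr9.

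After adjustment fewer genes passed in untreated blood over the same weeks, although the genes at an unadjusted p under 0.05 numbered 2116 in treated and 2242 in untreated blood. In untreated blood 12 genes passed the test upward (0.0702%) and 23 downward (0.135%), and 4 genes exceeded 2-fold, all of them higher (Wwtr1, Naip5, Csprs and Spg11; the last 3 were named after their values were seen). Most genes called in treated blood had a change of the same sign in untreated blood. They were chosen for a change over 2-fold in treated blood, so a smaller median in untreated blood follows in part from that choice and is a description. Of the 70 higher genes, 64 had a change above 0 in untreated mice, against 47.2% of all genes, with a median of 1.36 in treated and 0.40 in untreated blood on the log2 scale. In 17 of the 70 the untreated change was at least 50% of the treated one. Of the 15 lower genes, 11 were below 0 in untreated blood, with a median of -1.12 in treated and -0.16 in untreated blood. The difference of the changes, treated minus untreated, passed the test for 1 gene of 17097 (0.00585%), Cxcr3, although 1540 genes had an unadjusted p under 0.05. A call in treated blood alone is therefore not a measured difference from untreated blood, and the plot of treated against untreated change shows both values for each called gene.

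**Figure D1:**
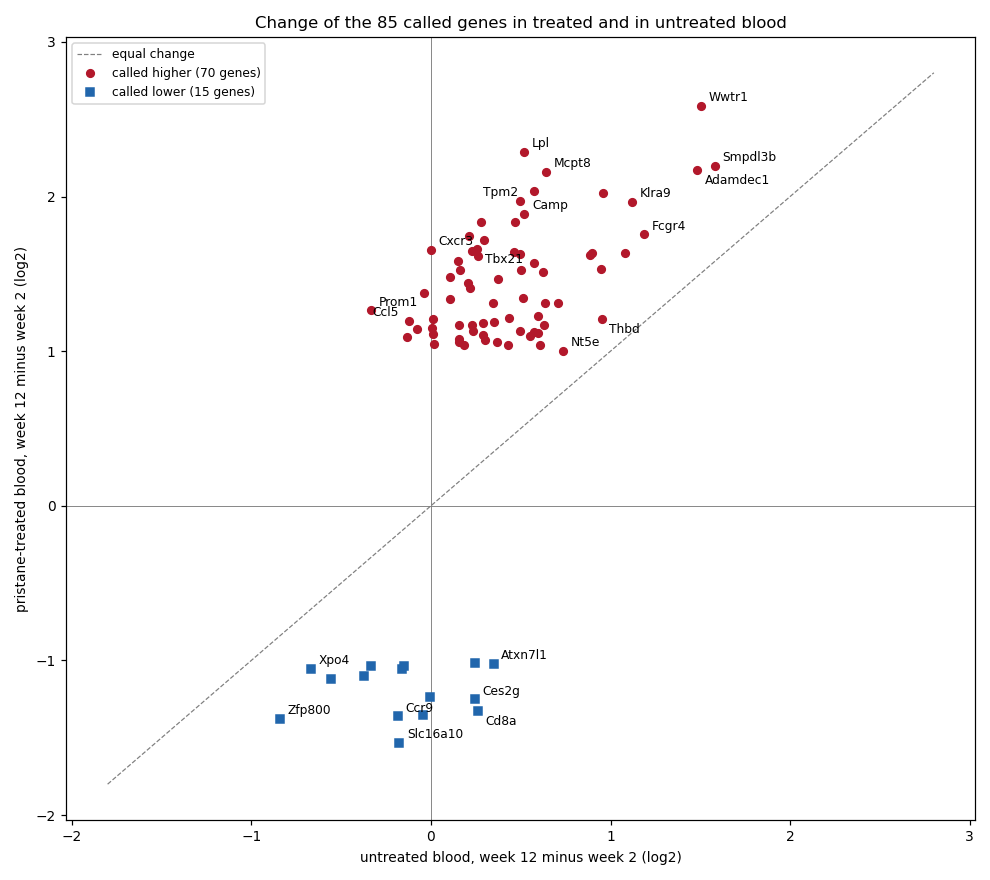
Change from week 2 to week 12 (log2, limma) of the 85 called genes in pristane-treated blood (vertical axis) against untreated blood (horizontal axis), with a dashed line of equal change. Most of the 70 genes called higher lie to the right of 0 and, having been chosen on the vertical axis, above the line, Wwtr1 rose in both, and Cxcr3 lies at 1.66 in treated blood and at 0 in untreated blood.

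Cxcr3 and Tbx21 gave the clearest change among lymphocyte genes. Cxcr3 encodes a receptor for chemokines that interferon gamma induces, and it is carried by type 1 T helper cells, CD8 T cells and NK cells. Its signal had a lowest, median and highest value of 6.41, 7.46 and 8.35 at week 12 in treated blood, against 5.32, 5.78 and 6.20 at week 2. All week 12 arrays lay above all week 2 arrays. The log2 change was 1.66 (95% confidence interval 1.19 to 2.12), or 3.15-fold (limma, adjusted p = 7.31e-06). In untreated blood Cxcr3 stood at 6.11, 6.33 and 7.07 at week 12 and 5.97, 6.35 and 7.26 at week 2, with a change of -0.00 (-0.47 to 0.47). The difference of the changes was 1.66 (1.0 to 2.31, limma, adjusted p = 0.0433). This call held in 13 of 32 fits that left out 1 array (adjusted p 0.0104 to 0.116) and in 8 of 10 other settings. At week 2 the treated median of 5.78 thus lay below the untreated median of 6.35, and at week 12 the treated median of 7.46 lay above the untreated median of 6.33.

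Tbx21 ran at 5.63, 6.33 and 7.26 in treated blood of week 12 and at 4.15, 4.82 and 5.24 at week 2, again without overlap. The change was 1.66 (1.18 to 2.14), or 3.16-fold (limma, adjusted p = 9.18e-06). Untreated blood changed by 0.26 (-0.22 to 0.74), and the difference of the changes, 1.40 (0.72 to 2.08), did not pass (limma, adjusted p = 0.127). It was called with the interquartile range covariate (1.51, limma, adjusted p = 0.0249) and with array weights (limma, adjusted p = 0.0399). Each of these settings called 12 genes in the difference, against 1 in the main fit. Tbx21 was called in none of the other settings followed for the difference and in no fit without 1 array. Ikzf2, which encodes the T cell transcription factor Helios, was 2.1-fold higher at week 12 (limma, adjusted p = 0.00526). Without week 12 replicate 1 its change was 0.97 and no longer exceeded 2-fold. These 3 genes were the members of the activated and regulatory T cell list that passed, of 24 measured, and none passed downward. Over all genes 0.965% passed upward and 0.269% downward. The list median was 0.36 in treated blood and 0.01 in untreated blood, against 0.00 and -0.01 over all genes.

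In the NK and cytotoxic cell list, 2 of 16 members passed upward and none downward, against 0.965% and 0.269% of all genes. A change above 0 was found in 14 of the 16, against 50.3% of all genes. The 2 that passed encode chemokines, Ccl5 (RANTES), made by effector T cells, NK cells and platelets, and Xcl1 (lymphotactin). Ccl5 had values of 7.39, 8.18 and 9.40 in treated blood of week 12, against 6.59, 7.06 and 7.64 at week 2, and the groups overlapped. Its change was 1.2 (0.55 to 1.85), or 2.29-fold (limma, adjusted p = 0.0451), and the call was lost in 11 of the 16 fits that left out 1 array (adjusted p 0.0259 to 0.132 over the 16). Xcl1 changed by 0.73 (limma, adjusted p = 0.0195). Ncr1, the NK receptor NKp46, stood at 3.08, 4.18 and 5.70 at week 12 and 2.73, 3.25 and 3.62 at week 2, a change of 0.96 (0.35 to 1.56) that did not pass (limma, adjusted p = 0.105). The granzyme gene Gzmb changed by 1.02 (adjusted p = 0.16) and the perforin gene Prf1 by -0.06 (adjusted p = 0.95), named after their values were seen. The list median was 0.63 in treated and -0.11 in untreated blood. Week 12 arrays of treated mice were the most spread in the NK score among these 4 groups, with 4.84, 5.46 and 6.25 at week 12 and 4.61, 4.87 and 5.16 at week 2.

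**Figure D2:**
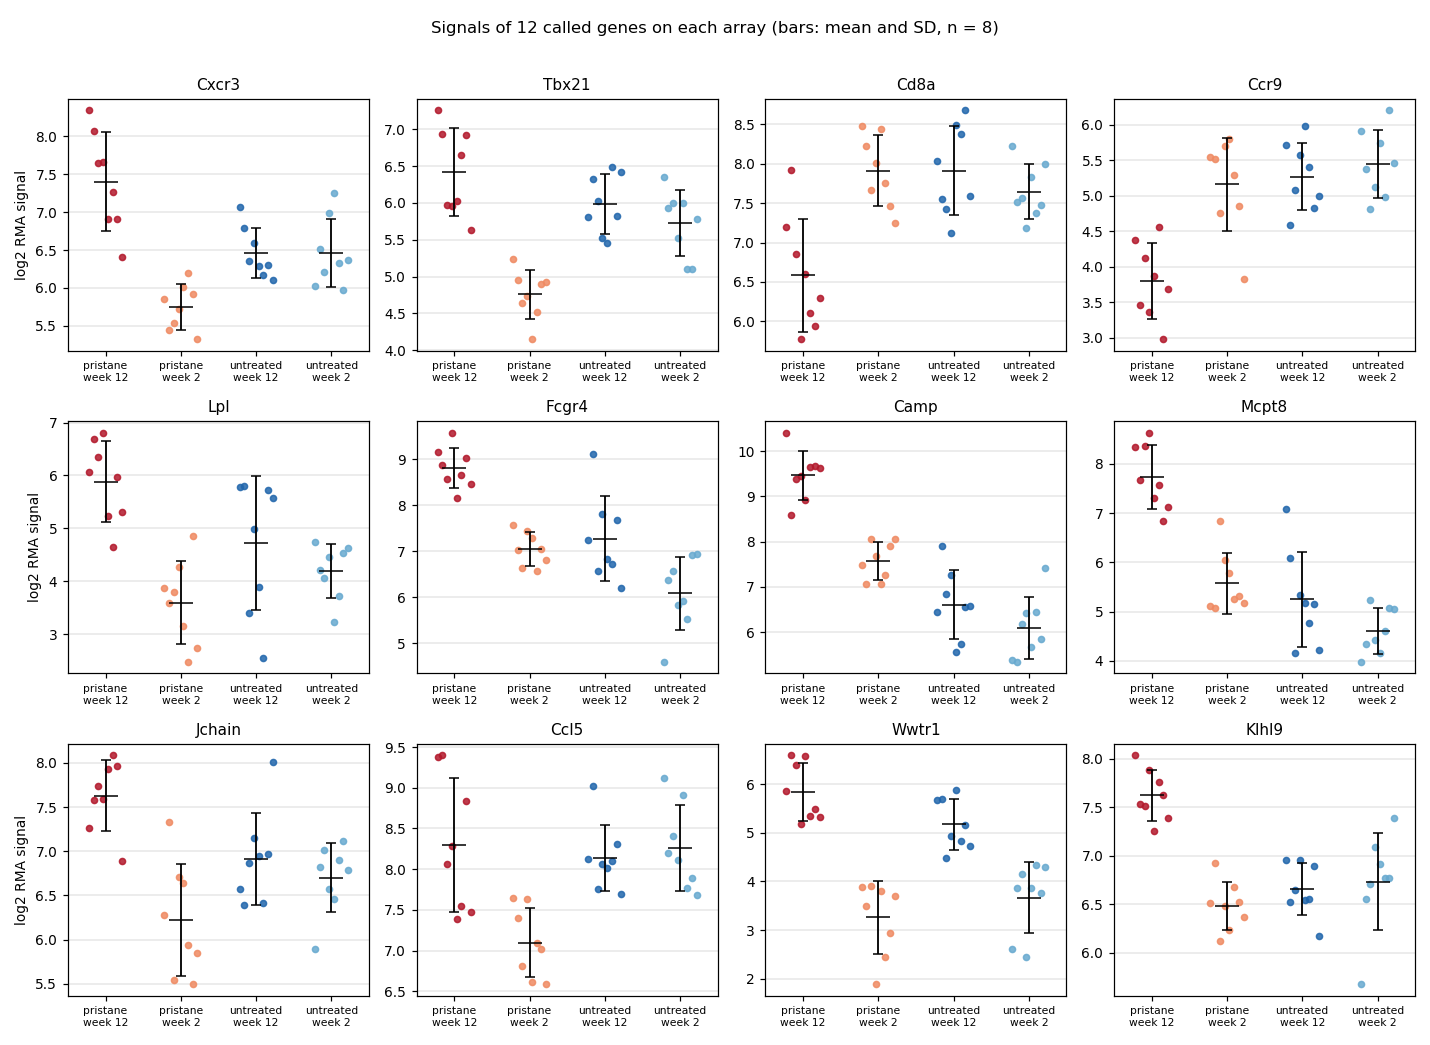
Log2 RMA signal of 12 called genes on each array (points) with mean and SD (bars, n = 8), from left to right pristane week 12, pristane week 2, untreated week 12 and untreated week 2. The treated week 12 arrays of Cxcr3 and Tbx21 lie above all treated week 2 arrays, while Cd8a, Ccr9 and Ccl5 overlap.

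T cell genes as a whole were not called lower, but Cd8a was. It had values of 5.77, 6.44 and 7.92 in treated blood of week 12, against 7.25, 7.88 and 8.47 at week 2. In this gene 7 of the 8 week 12 arrays lay below all week 2 arrays, and 1 overlapped them. The change was -1.33 (-1.89 to -0.76), a 2.51-fold fall (limma, adjusted p = 0.0054), and 1 of its 2 other probe sets passed in the same direction. Cd8b1, the beta chain of the same receptor, changed by -1.01 (-1.60 to -0.43, limma, adjusted p = 0.067) and so did not pass. Untreated blood changed by 0.26 in Cd8a and by 0.20 in Cd8b1. The difference of the changes in Cd8a was -1.59 (-2.39 to -0.79) and did not pass (limma, adjusted p = 0.135). It was called with array weights (-1.71, limma, adjusted p = 0.034) and with the erythroid covariate (-1.90, limma, adjusted p = 0.00319). These settings called 12 and 28 genes in the difference, against 1 in the main fit. Cd8a was called in none of the other settings followed for the difference and in no fit without 1 array. Cd4, the T helper co-receptor, changed by -0.17 (-0.58 to 0.23). Of 19 T cell list members 17 had a change below 0 and 2 above it, whereas 50.3% of all genes were above 0. Cd8a alone passed. The list median was -0.29 in treated and -0.09 in untreated blood. T cell scores were 6.20, 6.80 and 7.30 in treated blood of week 12, and 6.59, 7.24 and 7.71 at week 2, with much overlap.

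Ccr9, which encodes a gut- and thymus-homing receptor of T cells and of plasmacytoid dendritic cells, fell too. Its values were 2.98, 3.78 and 4.56 at week 12, against 3.84, 5.41 and 5.80 at week 2, with 4 of 8 week 12 arrays below every week 2 array. The change was -1.36 (-1.92 to -0.80), a 2.57-fold fall (limma, adjusted p = 0.00414), and none of its 3 other probe sets passed. Untreated blood held 4.59, 5.24 and 5.99 at week 12 and 4.82, 5.42 and 6.21 at week 2. Ccr9 was the only member of 9 in the plasmacytoid dendritic cell list that passed, and the list median was 0.05.

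Lpl and Fcgr4 were among the called genes of the lipid and the Fc receptor lists. Lpl, lipoprotein lipase, which releases fatty acids from circulating lipoproteins, had values of 4.64, 6.02 and 6.81 in treated blood of week 12, against 2.48, 3.70 and 4.86 at week 2. Its change was 2.29 (1.26 to 3.31), or 4.89-fold (limma, adjusted p = 0.0087), with 7 of 8 week 12 arrays above all week 2 arrays. The week 2 median lay below 3.89, so the size of this fold is uncertain. Plin2, which coats lipid droplets, was 2.19-fold higher (adjusted p = 0.00693), but with the erythroid covariate its change of 0.92 was under 2-fold. Olr1, a receptor for oxidised lipoprotein with a dimmer signal still at week 2 (1.37, 2.47 and 3.12), was 3.29-fold higher (adjusted p = 0.000432). In the cholesterol and lipid list Lpl and Plin2 were the 2 of 16 members that passed, both upward, against 0.965% of all genes. The list median was 0.13. Untreated blood changed by 0.52 in Lpl, 0.49 in Plin2 and 0.30 in Olr1, none of which passed.

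Fcgr4 encodes an activating receptor for immunoglobulin G on patrolling monocytes and neutrophils. Its treated values were 8.14, 8.76 and 9.57 at week 12, against 6.56, 7.03 and 7.57 at week 2, without overlap, a change of 1.76 (1.05 to 2.46), or 3.38-fold (limma, adjusted p = 0.00326). In untreated blood it changed by 1.19 (0.48 to 1.89, adjusted p = 0.109). Cx3cr1, the fractalkine receptor, had 5.31, 6.34 and 6.65 at week 12 and 4.37, 5.03 and 5.34 at week 2, a change of 1.23 (0.67 to 1.78, adjusted p = 0.0106). Untreated blood had higher levels of Cx3cr1, with 5.74, 6.56 and 7.65 at week 12 and 5.44, 6.06 and 6.80 at week 2. Cx3cr1 was the 1 member of 10 in the patrolling monocyte list that passed, against 0.965% of all genes that passed upward. A change above 0 was found in 9 of the 10, against 50.3% of all genes. The list median of 0.85 was the highest of all lists. The untreated median was 0.48. Patrolling monocyte scores were 6.08, 6.50 and 7.33 at week 12 and 5.53, 5.87 and 6.14 at week 2 in treated blood, against 5.67, 6.46 and 7.39 at week 12 and 5.87, 6.05 and 6.20 at week 2 in untreated blood. The week 12 groups thus covered nearly the same range. Of 14 classical monocyte list members 13 had a change above 0, with a median of 0.53 in treated and 0.12 in untreated blood. Scores of this list were 7.15, 7.37 and 7.71 at week 12 and 6.67, 6.96 and 7.11 at week 2 in treated blood, without overlap. In untreated blood they were 6.44, 6.82 and 7.28 at week 12 and 6.22, 6.50 and 6.70 at week 2. Cybb, a subunit of the phagocyte oxidase, was the 1 member that passed, 2.05-fold higher (limma, adjusted p = 0.0187). Its change lost the call without week 12 replicate 1, week 2 replicate 3 or week 2 replicate 8, and ranged from 0.91 to 1.14 over the 16 fits without 1 array. Adgre4, an adhesion receptor known on monocytes and macrophages though it stands in the eosinophil list, was 3.10-fold higher (adjusted p = 0.00618). Epx changed by 0.23 (adjusted p = 0.643).

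Further large rises were in genes outside the lists. Wwtr1, which encodes the Hippo pathway coactivator TAZ, had values of 5.19, 5.67 and 6.60 in treated blood of week 12, against 1.88, 3.60 and 3.91 at week 2, without overlap. Its change of 2.59 (1.94 to 3.24), or 6.01-fold (limma, adjusted p = 4.07e-07), was the largest fitted change of all called genes. Its week 2 signals lay about or below the median of all values, 3.89, so the size of this fold and its rank are uncertain. In untreated blood Wwtr1 also rose, by 1.5 (0.86 to 2.15, adjusted p = 0.0223). Smpdl3b, a sphingomyelinase-like enzyme, was 4.59-fold higher (adjusted p = 0.0145) and Adamdec1, a metalloprotease-like protein of macrophages, 4.50-fold (adjusted p = 0.00402). In untreated blood these changed by 1.58 and 1.48, and did not pass. Tpm2, the beta chain of tropomyosin, was 3.93-fold higher (adjusted p = 0.000153), and 2 of its 3 other probe sets passed in the same direction. Tgm2, a transglutaminase (3.57-fold, adjusted p = 0.0129), Efnb2, the ligand ephrin B2 (3.57-fold, adjusted p = 0.00545), and Clca3a2, a relative of chloride channel regulators (3.35-fold, adjusted p = 0.00226), were called as well. Klra9, of the Ly49 receptor family, was 3.90-fold higher (adjusted p = 0.012), but without week 12 replicate 4 the change was 1.74 (adjusted p = 0.0521). Near-identical family members may share its probe set.

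Granule genes of granulocytes rose in part. Camp, the antimicrobial peptide cathelicidin, had values of 8.60, 9.54 and 10.41 in treated blood of week 12, against 7.06, 7.59 and 8.07 at week 2, without overlap. The change was 1.89 (1.10 to 2.68), or 3.71-fold (limma, adjusted p = 0.00495). Ngp, another granule protein, was 3.08-fold higher (adjusted p = 0.0178), and Olfm4, of specific granules, 2.79-fold (adjusted p = 0.012). These 3 of 15 granule list members passed upward and none downward, against 0.965% and 0.269% of all genes. The list median was 0.54 in treated and 0.21 in untreated blood. Ltf, lactoferrin of the same granules, changed by 1.26 (0.38 to 2.13, adjusted p = 0.165), and Elane, the neutrophil elastase of early granules, by -0.04 (named after its values were seen). Mature neutrophil genes did not pass in any of 17 members, and S100a8, a calcium-binding protein of neutrophils, changed by 0.26 (-0.02 to 0.54). Untreated blood held much lower granule levels, with Camp at 5.55, 6.57 and 7.91 at week 12 and 5.35, 6.02 and 7.42 at week 2.

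Mcpt8, a basophil protease in the mouse, had values of 6.85, 7.62 and 8.63 at week 12 in treated blood and 5.07, 5.28 and 6.83 at week 2. All week 12 arrays lay above all week 2 arrays, and the change was 2.16 (1.47 to 2.85), or 4.47-fold (limma, adjusted p = 0.000104). In untreated blood it changed by 0.64 (-0.05 to 1.34). No other member of the 13 in the basophil and mast cell list passed. Cpa3, a carboxypeptidase of the same cells, changed by 0.74 (adjusted p = 0.285) and Gata2, a transcription factor of basophils and progenitors, by 0.71 (adjusted p = 0.052). The list median was 0.46.

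Jchain, which links antibody units into polymers and marks plasma cells, had values of 6.89, 7.66 and 8.09 in treated blood of week 12, against 5.49, 6.11 and 7.33 at week 2. Its change was 1.41 (0.76 to 2.05), or 2.65-fold (adjusted p = 0.0115), with 6 of 8 week 12 arrays above all week 2 arrays. None of the other plasma cell genes, of 13 in the list, passed. Prdm1, the plasma cell regulator Blimp-1, changed by 0.39 (-0.06 to 0.84). B cell genes did not pass in any of 19 members, with Cd79a at -0.18 and Ms4a1 (CD20) at -0.08. Atf6, a sensor of the unfolded protein response, was 2.14-fold higher (limma, adjusted p = 0.00459), the 1 of 20 in its list that passed. It fell below 2-fold when week 12 replicate 4 or week 2 replicate 7 was left out (0.95 at the lowest).

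Of 18 platelet genes 4 passed upward and none downward, against 0.965% and 0.269% of all genes. All 18 had a change above 0, against 50.3% of all genes. The 4 were F5, coagulation factor V (0.73, adjusted p = 0.00285), the receptor subunit Gp9 (0.68, adjusted p = 0.0249), Treml1 of platelet granules (0.72, adjusted p = 0.0314) and the chemokine Ppbp (0.37, adjusted p = 0.0327). None exceeded 2-fold. F5 stood at 9.74, 10.34 and 10.80 at week 12 in treated blood, against 9.39, 9.59 and 10.16 at week 2, with 7 of 8 week 12 arrays above all week 2 arrays. Pf4, platelet factor 4, changed by 0.13 (-0.08 to 0.35). The list median was 0.52 in treated and 0.19 in untreated blood. In untreated blood 15 of 18 members were also above 0, against 47.2% of all genes. Platelet scores were 9.26, 9.97 and 10.37 at week 12 and 9.17, 9.40 and 9.78 at week 2 in treated blood. No red cell gene passed the test. Of 25 erythroid list members 23 had a change below 0 and 2 above it, whereas 50.3% of all genes were above 0. The list median was -0.39 in treated and -0.02 in untreated blood, and no member passed. Erythroid scores were 7.97, 9.09 and 9.35 at week 12 and 8.68, 9.35 and 9.64 at week 2 in treated blood. Hba-a1 changed by -0.01 and Alas2, the first enzyme of red cell haem synthesis, by -0.03. Both lay near the top of the scale, whose highest value was 13.75, where a change may not register. With the erythroid score as a covariate, 53 genes were called higher and 21 lower, and 55 of the 85 were shared. Among 25 named rises followed in this fit, Ccl5, Cybb, Ikzf2 and Plin2 were the 4 that lost the call. Most of these 25 were picked as the largest rises or the strongest of a list, so they do not stand for all 70. Of the 15 falls 6 kept the call. The part of red cell content in the other changes was not tested beyond this.

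The motif of GATA factors, which act in megakaryocytes and red cells, was searched in the promoter windows of these genes. AGATAA, on either strand, occurred for 5 of the 16 platelet list genes with a window (31.2%). It occurred for 6 of the 16 such erythroid list genes (37.5%), against 9.44% of the 13605 genes with a window. Each window is 300 bases across the RefSeq gene start, most of it upstream, read 5′ to 3′ on the gene's strand in build GRCm38.p6. The Gp5 window at chr16:30310732-30311031, on the minus strand, is shown for the platelet list, with both matches in capitals. Gp5 was chosen for this after its values were seen, as were the windows of Ifit3 and Oas3 given with the interferon genes. Gp5 itself changed by 0.66 (0.22 to 1.10, adjusted p = 0.137).
Gp5: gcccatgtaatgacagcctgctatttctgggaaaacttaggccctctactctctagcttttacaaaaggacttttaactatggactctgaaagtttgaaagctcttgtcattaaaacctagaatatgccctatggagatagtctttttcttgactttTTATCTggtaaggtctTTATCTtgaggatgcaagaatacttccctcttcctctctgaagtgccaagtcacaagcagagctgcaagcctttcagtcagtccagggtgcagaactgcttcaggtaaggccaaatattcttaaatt

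No interferon-induced gene of the list passed the test between the weeks, and all stood higher in treated than in untreated blood. Ifit1, an antiviral RNA-binding protein, had treated values of 9.09, 9.52 and 9.86 at week 12 and 9.65, 10.005 and 10.63 at week 2, and untreated values of 5.69, 6.37 and 7.26 at week 12 and 5.26, 6.30 and 7.34 at week 2. Its change in treated blood was -0.52 (-1.16 to 0.11, limma, adjusted p = 0.579). Irf7, a factor that amplifies interferon production, changed by -0.66 (-1.28 to -0.04, adjusted p = 0.389), and Oas3, an antiviral synthetase, by -0.86 (-1.68 to -0.04, adjusted p = 0.4). Oasl2 changed by -0.09 and Rtp4 by -0.08. Of 25 interferon list members none passed in either direction, and the median was -0.07 in treated and 0.10 in untreated blood. The mean of all 25 was higher in treated than in untreated mice at both weeks. For all 25 the interval excluded a 2-fold rise, and for 18 it lay within 2-fold on both sides. A 2-fold rise was also excluded for every member of other lists, such as B cell (19), T cell (19) and erythroid (25). In the NK and cytotoxic list it was excluded for 4 of 16. The exclusion is thus not particular to interferon genes, and its share over all genes is not given here. Interferon scores were 8.01, 8.41 and 8.85 in treated blood of week 12 and 8.10, 8.59 and 8.84 at week 2, against 6.31, 6.74 and 7.09 in untreated blood of week 12 and 6.48, 6.57 and 6.87 at week 2.

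The promoter windows of 3 of these genes are shown because the list is high at both weeks and many of its windows hold the interferon-stimulated response element core, GAAANNGAA, searched on both strands. Of 18 list genes with a window 9 held it (50%), against 8.69% of all genes with a window. Among the genes called higher, 8 of the 54 with a window did (14.8%). A match describes the letters and not a bound site. Capitals mark the matches. Ifit1 lies at chr19:34640639-34640938 and Ifit3 at chr19:34583279-34583578, both on the plus strand, and Oas3 at chr5:120777610-120777909 on the minus strand, in GRCm38.p6 (RefSeq).
Ifit1: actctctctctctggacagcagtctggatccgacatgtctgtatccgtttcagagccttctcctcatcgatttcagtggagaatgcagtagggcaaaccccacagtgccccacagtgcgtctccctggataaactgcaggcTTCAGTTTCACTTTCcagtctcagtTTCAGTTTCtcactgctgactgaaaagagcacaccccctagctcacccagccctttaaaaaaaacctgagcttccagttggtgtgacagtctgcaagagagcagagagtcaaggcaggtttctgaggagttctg
Ifit3: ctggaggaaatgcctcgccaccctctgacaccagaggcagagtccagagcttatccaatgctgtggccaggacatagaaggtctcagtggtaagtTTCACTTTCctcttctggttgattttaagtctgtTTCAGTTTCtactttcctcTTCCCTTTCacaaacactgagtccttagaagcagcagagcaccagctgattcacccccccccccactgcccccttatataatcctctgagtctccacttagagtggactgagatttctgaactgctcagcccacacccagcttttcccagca
Oas3: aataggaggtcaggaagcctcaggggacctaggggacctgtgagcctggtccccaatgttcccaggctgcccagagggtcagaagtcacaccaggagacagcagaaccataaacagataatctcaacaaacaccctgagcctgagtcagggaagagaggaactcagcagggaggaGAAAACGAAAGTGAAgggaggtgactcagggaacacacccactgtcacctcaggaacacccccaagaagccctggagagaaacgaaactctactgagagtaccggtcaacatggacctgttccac

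**Figure D3:**
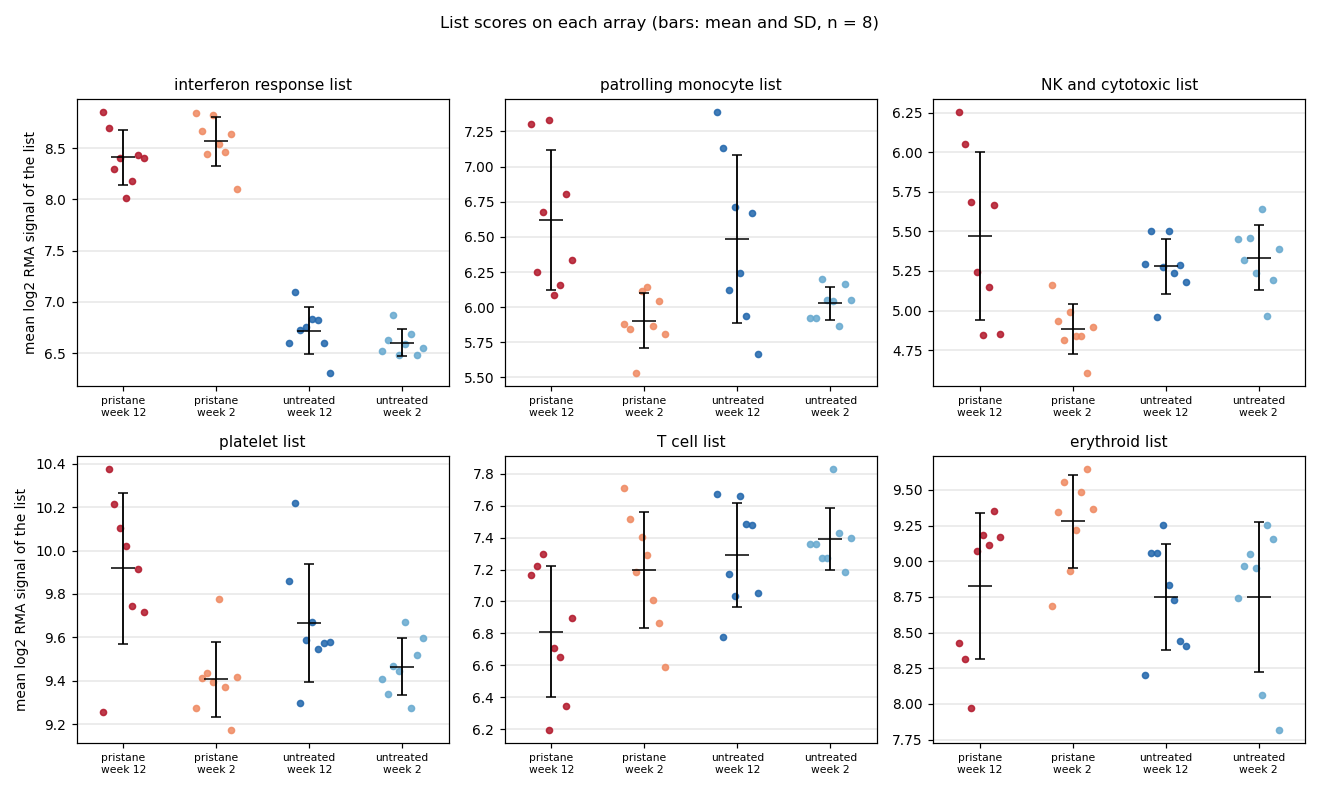
Mean log2 RMA signal of 6 gene lists on each array (points) with mean and SD (bars, n = 8), in the order pristane week 12, pristane week 2, untreated week 12 and untreated week 2. The interferon score averages 8.41 and 8.57 in treated blood of weeks 12 and 2 and lies lower on every untreated array, the NK score is the most spread in treated week 12 arrays, and the erythroid and T cell scores overlap between weeks.

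The remaining called falls were in genes outside the lists, and whether these genes share a function or a cell source was not tested. Zfp800, a zinc finger protein gene, had treated values of 3.26, 4.72 and 5.21 at week 12 and 4.94, 5.83 and 6.52 at week 2, a change of -1.38 (-1.91 to -0.84, limma, adjusted p = 0.00245), or a 2.60-fold fall, while untreated blood changed by -0.84 (-1.38 to -0.30, adjusted p = 0.136). Tdrp had values of 5.09, 6.14 and 7.2 at week 12 and 6.70, 7.64 and 7.94 at week 2, a 2.55-fold fall (adjusted p = 0.00371), with a change of -0.04 in untreated blood. The largest fall by fold among called genes was in the aromatic amino acid transporter gene Slc16a10 (2.89-fold, limma, adjusted p = 0.0396). Its call was lost in 9 of the 16 fits without 1 array. Crlf3, a cytokine receptor-like gene, and Atxn7l1 had no overlap between weeks and fell 2.05-fold (adjusted p = 0.00609) and 2.03-fold (adjusted p = 0.0279). Ces2g, Mettl27, Larp1b, Rph3al, Mcph1, Xpo4, Ambp and Zfp180 completed the 15. Cd8a, Ccr9, Tdrp and Zfp800 were the 4 falls whose call held in every fit without 1 array, and the other 11 lost it in 1 to 11 of those 16 fits. With the erythroid score as a covariate 9 of the 15 lost the call. Among basic processes, Cox6c of the respiratory chain (-0.79, adjusted p = 0.0365), the splicing factor Srsf6 (-0.63, adjusted p = 0.0115) and the ribosomal protein Rps2 (-0.38, adjusted p = 0.0472) were the only members of their lists that passed. The number of falls also depended on the settings, with 27 under the interquartile range covariate and 8 without week 2 replicate 3.

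**Figure D4:**
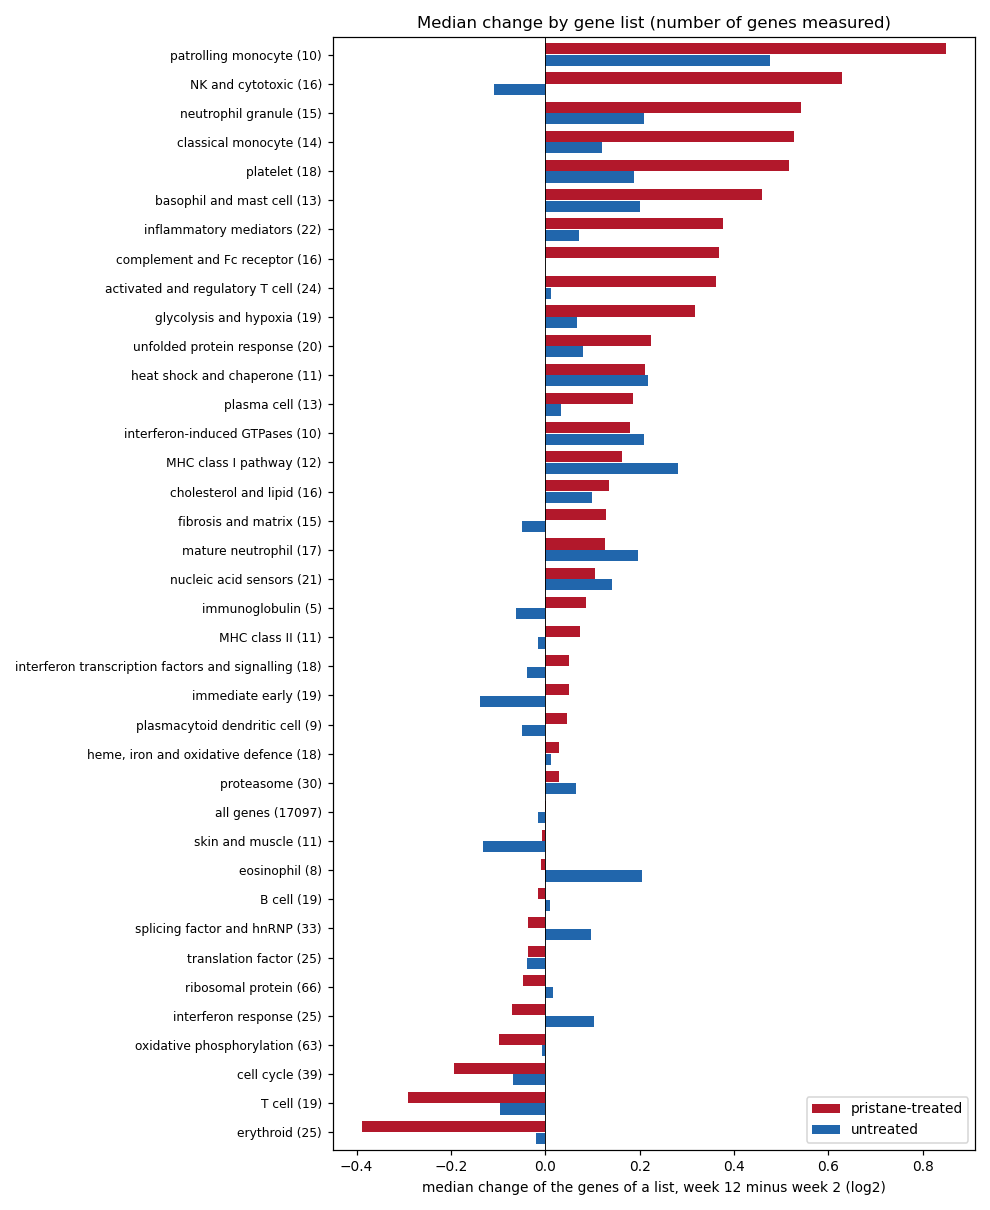
Median log2 change from week 2 to week 12 of the genes of each list, in pristane-treated blood above and in untreated blood below for each list, with the number of genes measured in parentheses. Patrolling monocyte genes had the highest treated median (0.85) and erythroid genes the lowest (-0.39), against 0.00 for all genes.

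The remaining rises were smaller or single. In the complement and Fc receptor list 2 of 16 members passed, both upward, against 0.965% of all genes. They were Fcgr4 and C3ar1, the receptor for the complement fragment C3a (0.93, limma, adjusted p = 0.00495). Il6 (0.71, adjusted p = 0.0271) passed with Ccl5 in the inflammatory mediator list of 22, though its signal was dim, at 1.57, 2.71 and 3.58 at week 12 and 1.48, 1.91 and 2.37 at week 2. Pgk1, a glycolytic enzyme, rose by 0.43 (limma, adjusted p = 0.0285), the 1 of 19 in its list that passed. No member passed among MHC class I (12), MHC class II (11), cell cycle (39), proteasome (30), heat shock (11), immediate early (19), nucleic acid sensor (21), interferon signalling (18), interferon-induced GTPase (10), immunoglobulin (5), fibrosis (15), translation factor (25) or haem and oxidative defence genes (18). Klhl9, an adaptor of a ubiquitin ligase that was named after its values were seen, had treated values of 7.25, 7.58 and 8.03 at week 12 and 6.12, 6.50 and 6.92 at week 2. Its change was 1.14 (0.78 to 1.5, limma, adjusted p = 6.12e-05) in treated and -0.08 (-0.44 to 0.28) in untreated blood, and the difference of the changes was 1.22 (0.71 to 1.73, adjusted p = 0.0631).

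Levels at the other weeks show when the called genes reached their week 12 values. The called genes were chosen by weeks 12 and 2 of the treated arrays, so their levels in those groups are no test. The mean of the 70 higher genes had medians of 5.30, 5.77, 6.13, 6.74 and 6.43 at weeks 2, 4, 8, 12 and 14 in treated blood, and of 5.41, 5.40, 5.96, 5.76 and 6.45 in untreated blood. At week 14 the treated arrays ran at 5.75 to 7.27 and the untreated ones at 5.94 to 6.82, and so overlapped. The mean of the 15 lower genes had medians of 6.90, 6.46, 6.22, 5.71 and 5.63 in treated and of 6.56, 6.43, 6.29, 6.30 and 5.84 in untreated blood over the same weeks. In treated blood the medians were thus ordered by week up to week 12 in both.

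Single genes followed different courses. Cxcr3 averaged 5.75 ± 0.30, 6.04 ± 0.47, 6.94 ± 0.38, 7.40 ± 0.65 and 7.15 ± 0.63 (SD, n = 8) at weeks 2, 4, 8, 12 and 14 in treated blood, and stayed between 6.33 and 6.46 in untreated blood up to week 12, with 6.94 ± 0.42 at week 14. Cd8a averaged 7.91, 7.78, 7.35, 6.58 and 7.08 in treated blood and between 7.58 and 7.95 in untreated blood. Lpl averaged 5.88 in treated blood of week 12 and 6.29 ± 1.79 at week 14, against 6.67 ± 0.84 in untreated blood of week 14. Camp averaged 9.20 at week 4, 9.98 at week 8, 9.46 at week 12 and 8.73 at week 14 in treated blood, so its highest mean was at week 8. Wwtr1 averaged 3.26, 4.01, 5.47, 5.85 and 6.32 in treated blood, and 3.67, 4.51, 5.07, 5.17 and 5.43 in untreated blood. Irf7 averaged between 9.84 and 10.51 in treated blood and between 6.77 and 7.36 in untreated blood at all weeks, with 1 treated array of week 4 at 6.58.

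**Figure D5:**
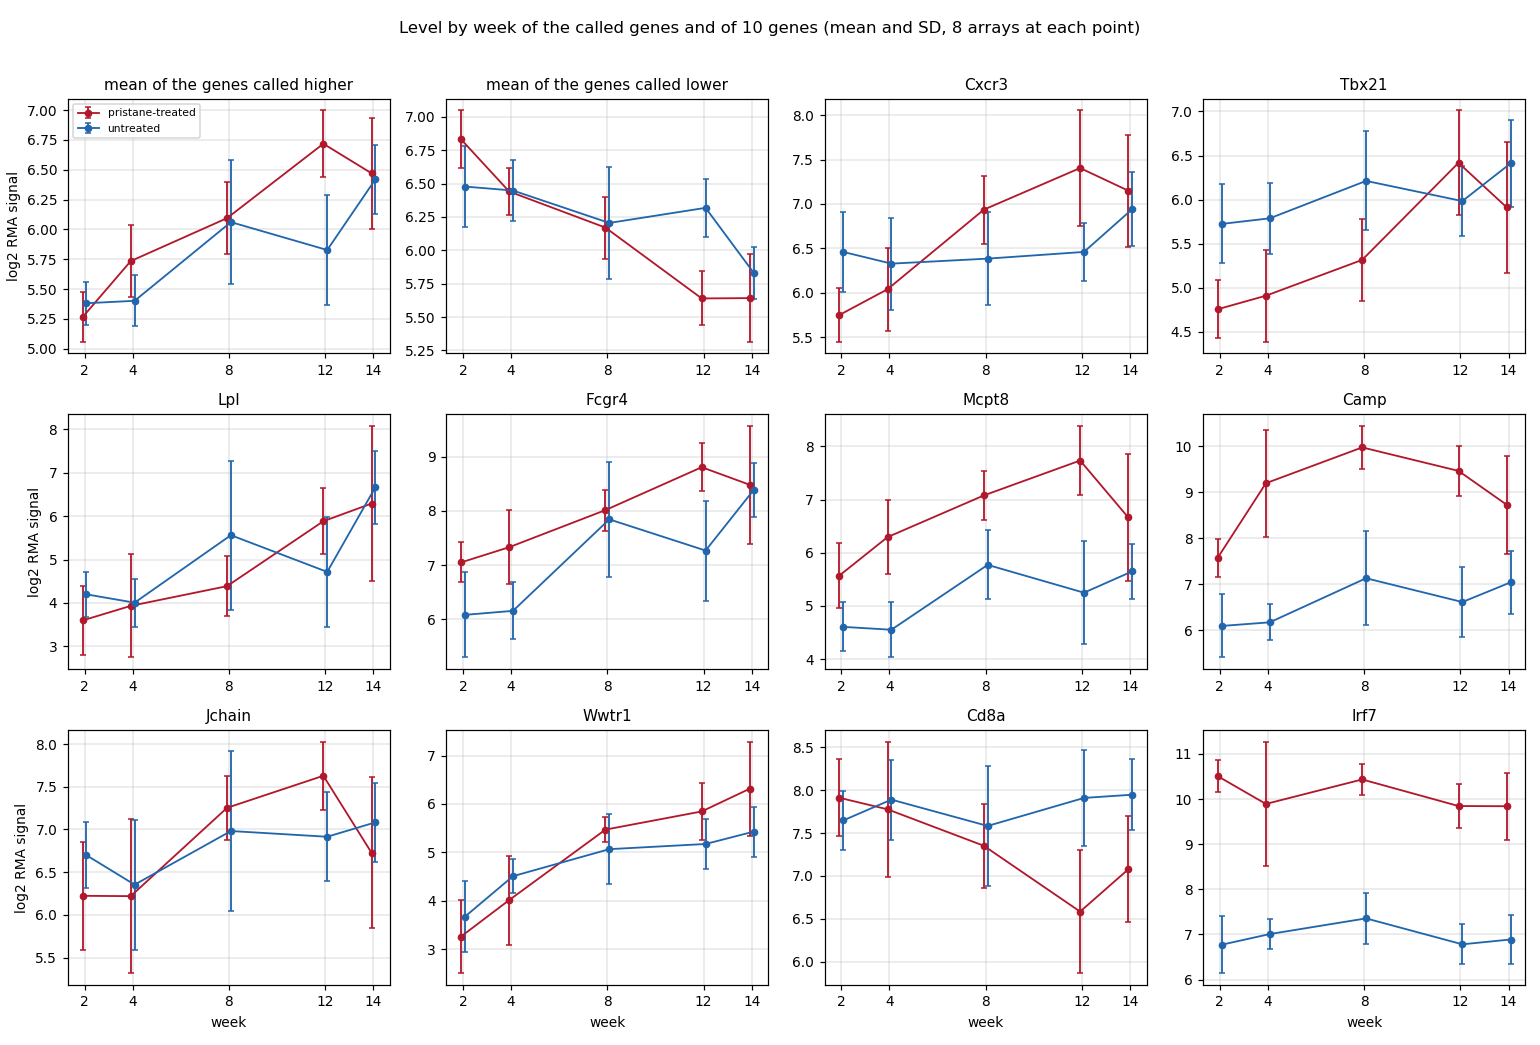
Mean log2 RMA signal with SD (8 arrays at each point) by week in pristane-treated and untreated blood, for the mean of the genes called higher, the mean of those called lower, and 10 genes. The mean of the genes called higher averages 6.72 at week 12 in treated blood, and at week 14 the treated mean of 6.47 and the untreated mean of 6.42 overlap, while the Irf7 means are apart at every week.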

How the data were processed

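Blood RNA was profiled on Affymetrix HT MG-430 PM arrays, 1 array per sample. The authors deposited log2 intensities per probe set, normalized by RMA, which also corrects background and summarises probes. Deposited values spanned 0.736 to 13.8, array medians 3.78 to 4.01, and interquartile ranges of the arrays 2.74 to 3.78. The arrays thus did not share 1 distribution, and the exact normalization is not settled here. Control probe sets (104 of 45141) were left out. A gene was its single-gene probe set (28898 of 45037; 551 listed several genes, and the rest were unnamed here) with the highest mean. All 88 arrays entered one limma model (version 3.58.1, run under R 4.3.3) with a mean for each of 11 groups, which gave the changes in treated and untreated blood and their difference. A gene was called at adjusted p under 0.05 and over 2-fold, as the study does. The pipeline was tested on simulated data.

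Named genes were the 15 largest rises and falls, 6 of each in the difference, the 4 strongest by moderated t within every list, and a fixed set; clones and some list members are not printed. Ly6c2 and Siglech, of that set, are not analysed here, having no single-gene probe set in the tables, and another item is not reported here. The genes and lists were chosen with earlier results of these data known. List scores are means of log2 signals. Alternatives were other scalings, covariates, probe set rules, thresholds, arrays in the fit, a replicate block and leaving out each array.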

Additional observations from a re-analysis of the deposited data

Results flagged for a closer look

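Among 186 tests of single arrays against the rest of their group of 8, 17 stood apart by their gap, and chance flags about 1 in 20 such groups. At week 12 of treated blood these were Efnb2 on replicate 4 (6.70, the highest), Larp1b on replicate 3 (6.02, the lowest), Ltf on replicate 1 (10.10, the highest), S100a8 on replicate 8 (12.08, the lowest), Pf4 on replicate 1 (10.85, the lowest) and Mki67 on replicate 3 (6.64, the lowest). The B cell score was highest on week 12 replicate 8 (8.22), and the unfolded protein response score was highest on week 12 replicate 3 (7.36). At week 2 they were Slc16a10 (7.04, the lowest) and Rph3al (7.21, the lowest), both on replicate 1, Oasl2 on replicate 4 (9.74, the highest), Usp18 (7.56, the lowest) and Cd79a (9.03, the lowest), both on replicate 8, and Pf4 on replicate 5 (12.14, the highest). Week 2 replicate 5 also had the highest platelet score (9.78), replicate 8 the lowest unfolded protein response score (6.43) and replicate 7 the lowest fibrosis and matrix score (3.89).

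The change from week 2 to week 12 differed between treated and untreated blood for 4 of 45037 probe sets (limma, adjusted p under 0.05). For Cxcr3 the difference was 1.66 (adjusted p = 0.0433). A probe set of Dnajb6, a chaperone cofactor, differed by -1.27 (adjusted p = 0.0433), with means of 7.18 and 7.99 at weeks 12 and 2 in treated blood and 7.69 and 7.24 in untreated blood. A probe set of Bid, a pro-apoptotic gene, differed by 1.19 (adjusted p = 0.0374), with means of 3.66 and 3.25 in treated blood and 3.18 and 3.96 in untreated blood. A probe set with no single gene differed by -1.24 (adjusted p = 0.0151), with means of 8.28 and 8.95 in treated blood and 8.72 and 8.16 in untreated blood. The probe sets of Dnajb6 and Bid were not those that represented their genes in the counts.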

How the results depend on the processing

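The 85 calls in treated blood became 175 with all probe sets counted, 45 at the stricter 0.01 and 211 when any fold was allowed, and 68 (without week 12 replicate 4) to 101 (without week 12 replicate 5) when 1 array was left out. The other settings gave 74 to 104 calls. The 4 calls in untreated blood became 2 without dim probe sets, with the interquartile range covariate or with a replicate block, 21 with array weights, 10 with the erythroid covariate, 8 with the probe set of largest interquartile range, 13 with all probe sets, 0 at 0.01 and 35 when any fold was allowed, and 1 to 12 without 1 array. The single gene in the difference became 0 in the fit on the contrast's own arrays, centred on array medians or at 0.01, 2 quantile normalized, centred on the brightest probe sets, without dim probe sets or with a replicate block, 4 with all probe sets, 12 with the interquartile range covariate or array weights and 28 with the erythroid covariate, and 0 to 3 without 1 array. Cxcr3 kept this call in 8 of 10 other settings (0.0563 on the contrast's own arrays, 0.108 centred on medians) and in 13 of 32 fits without 1 array (adjusted p 0.0104 to 0.116). The cause of these shifts was not tested.

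Genes near 0 turned their sign. H2-Aa was -0.0203 with the interquartile range covariate and with array weights, -0.12 with the erythroid covariate, and -0.0587 to 0.0682 without 1 array. Hba-a1 was 0.0055 with the interquartile range covariate, 0.0826 with the erythroid covariate and -0.0472 to 0.0533 without 1 array. With the erythroid covariate S100a9 was -0.0384 and Alas2 0.0686. Without 1 array Alas2 ran from -0.0588 to 0.0164, Oasl2 from -0.164 to 0.026 and Rtp4 from -0.18 to 0.0247. In all, 1783 single-gene values kept direction and side of the threshold, 109 lost the call, 6 gained it and 21 turned.

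Replicate numbers gave no clear pairing of the treated arrays. The correlation of same-numbered deviations was -0.178 to 0.396 and over 0.1 in 2 of 8 pairs. In these groups 1 of 8 arrays correlated best with its own number. For untreated arrays the correlation was -0.132 to 0.148 and over 0.1 in 3 of 8 pairs, and 3 of 8 correlated best with their own number. Such correlations cannot tell whether a number marks the same mouse. With the replicate block 92 genes were called in treated blood. Signals near background limit dim genes such as Il6.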
